A study of Mus musculus with 2 samples.

Results

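The vacuolar ATPase (V-ATPase) and the lysosome were described in granulocyte-monocyte progenitors through 37 named genes, found by identifier among 21461 nuclear protein-coding genes of 43346 annotated genes. Of these, 17 encode V-ATPase subunits or accessory proteins and 20 encode other lysosomal proteins or the regulator Tfeb. They were picked by name and known role, and no measured value entered the rule, though earlier results of these data were known. All 37 had a row in both libraries, and 36 had counts.

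The cells were primary bone marrow progenitors of neutrophils and monocytes from male C57BL/6J mice, adults of 5 to 6 weeks. No treatment is named. The series holds 1 group with 2 libraries and no control, so no condition was compared and no p-value is given. Each library was made from 100 ng of total RNA depleted of ribosomal RNA. A size range of 200 to 712 is labelled on replicate 1 and of 200 to 1000 on replicate 2, both without units. The labels call the libraries biological replicates 1 and 2 and give the same donor record for both, and do not say whether animals were pooled. The SD of each value is therefore the spread of 2 libraries, which may be partly technical.

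Replicate 1 held 49473848 and replicate 2 held 44260902 expected counts, which are estimated reads per gene. TPM divides them by effective length and scales each library to the same total. The share of that total on nuclear protein-coding genes was 19.07% (replicate 1) and 22.84% (replicate 2). The deposited TPM of a typical coding gene is therefore lower in replicate 1. Where stated, TPM was rescaled to leave out all RNAs other than those of nuclear protein-coding genes. The progenitor genes Kit, Cd34, Fcgr3, Mpo and Elane were all at 20 TPM or more in both libraries. Of 12 macrophage markers, 2 reached 1 TPM in both libraries, where 40.8% of all nuclear protein-coding genes did. The 12 markers summed to 5.16 TPM (replicate 1) and 5.44 TPM (replicate 2). Those above 1 TPM were Vcam1 at 2.60 TPM ± 0.318 (SD, n = 2) and Adgre1 at 1.94 TPM ± 0.0212, while Mertk, Timd4, Siglec1, Marco and Vsig4 had 0 counts.

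The V-ATPase is a rotary pump that uses ATP to move protons into lysosomes, endosomes and secretory vesicles. Its cytosolic V1 sector splits ATP and turns a rotor, and its membrane V0 sector carries the protons. The acid lumen lets hydrolases break down lipids, glycans and proteins, and loss of single hydrolases causes lysosomal storage diseases. In myeloid cells the same compartment digests engulfed material, and many of its genes carry sites for the transcription factor TFEB.

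All but 1 of the genes were expressed, most of them above the typical level of expressed genes. At or above 1 TPM in both libraries were 36 of 37, where 40.8% of all nuclear protein-coding genes passed that level. At or above 10 TPM in both were 21 of 37, where 14.3% passed. On rescaled TPM, 33 of 37 reached 10 in both, where 34.8% of all nuclear protein-coding genes did. These genes were picked as parts of a compartment that nearly all cells have, so the counts describe the list only. The median of the 37 genes was 13.0 TPM (replicate 1) and 18.4 TPM (replicate 2). Over the 8764 coding genes at or above 1 TPM in both libraries, the median was 6.46 TPM (replicate 1) and 7.74 TPM (replicate 2). On rescaled TPM the 37 genes had a median of 74.4 ± 8.91 (SD, n = 2), and the same 8764 genes had a median of 33.9 ± 0.0145. Together the 37 genes held 0.332% of the coding TPM (replicate 1) and 0.353% (replicate 2).

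**Figure D1:**
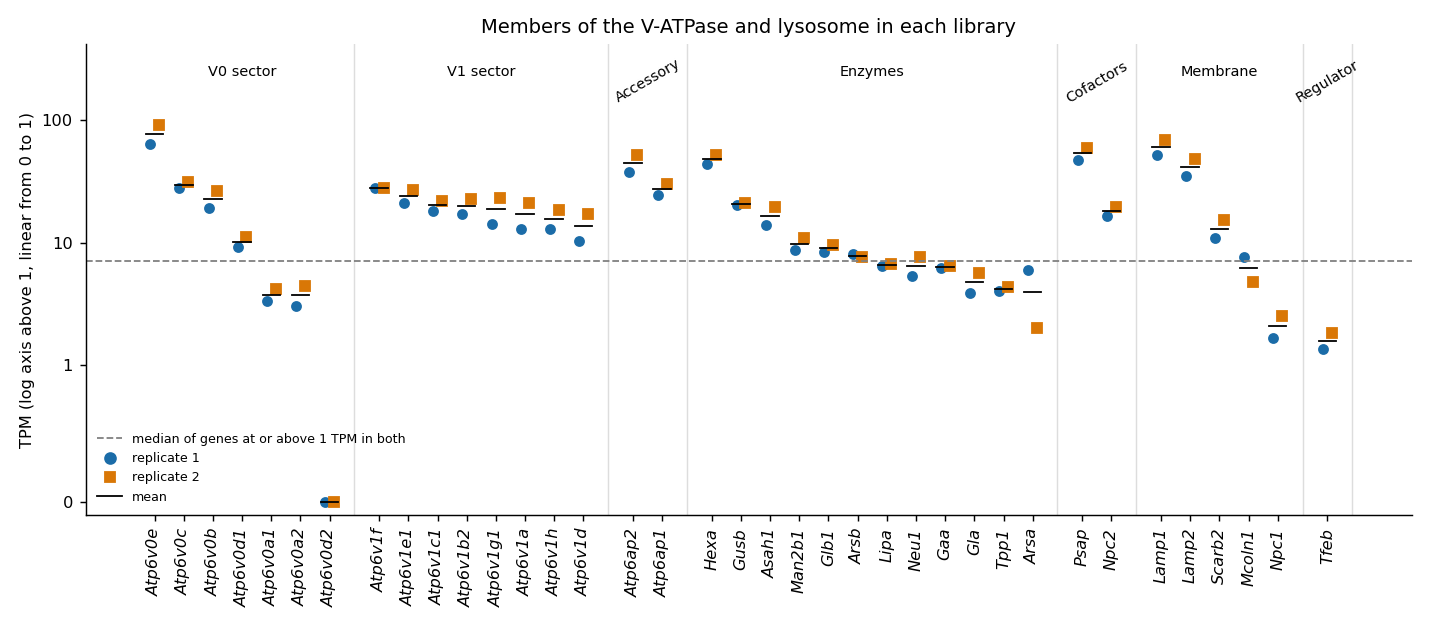
TPM of each of the 37 genes in replicate 1 (circles) and replicate 2 (squares), by role, with the mean as a short line, on an axis that is logarithmic above 1 and linear from 0 to 1. The V1 genes sit in a narrow band, the V0 genes spread from 0 to 91.87 TPM, and most enzymes lie near the dashed median of 7.10 TPM for genes at or above 1 TPM in both libraries.

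The membrane sector V0 had the highest and the lowest of all 37 genes. Atp6v0e, which encodes the small membrane subunit e, was at 64.25 TPM (replicate 1) and 91.87 TPM (replicate 2), the top of the list in both libraries. Atp6v0c, encoding the proteolipid c that forms most of the rotor ring, was at 28.07 TPM (replicate 1) and 31.61 TPM (replicate 2). Atp6v0b, encoding the related ring protein c″, was at 19.29 and 26.27 TPM in replicates 1 and 2. In both libraries the proteolipid c gene was higher, with a ratio of Atp6v0c to Atp6v0b of 1.33 ± 0.178 (SD, n = 2). The size of this ratio depends on the transcripts counted. On coding transcripts alone, Atp6v0c was at 27.2 TPM (replicate 1) and 31.0 TPM (replicate 2), and Atp6v0b at 9.52 and 19.1 TPM. Atp6v0d1, encoding the subunit that joins the ring to the central stalk, was at 9.31 and 11.10 TPM. The genes of the proton-channel subunit a were lowest of the 6 detected V0 genes, with Atp6v0a1 at 3.37 and 4.21 TPM and Atp6v0a2 at 3.07 and 4.42 TPM. The 2 overlapped on gene TPM, and neither was higher in both libraries. On coding transcripts alone, Atp6v0a2 was the higher in both. It was at 3.07 against 3.0 TPM (replicate 1) and 4.42 against 2.55 TPM (replicate 2). The highest of these 6 genes exceeded the lowest 20.9-fold in replicate 1 and 21.8-fold in replicate 2. Expected counts of Atp6v0c were fractional, so some of its reads were shared with other features.

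Atp6v0d2 was the exception among the 37. It encodes the subunit d isoform known from osteoclasts, macrophages and kidney, and had 0 counts in both libraries. By counting error alone, such a 0 leaves room for 3 counts, or 0.0163 TPM (replicate 1) and 0.0216 TPM (replicate 2). The upper bounds of the deposited credibility intervals were higher, at 0.107 TPM (replicate 1) and 0.168 TPM (replicate 2). Measured against that limit of 3 counts per library, Atp6v0d1 was 572-fold higher in replicate 1 and 515-fold higher in replicate 2. Against the upper bounds of the deposited intervals, the difference would be smaller. Having no counts was shared by 40.2% of nuclear protein-coding genes. The 7 osteoclast markers summed to 2.39 TPM (replicate 1) and 3.36 TPM (replicate 2), and Ctsk, Calcr, Ocstamp, Dcstamp and Oscar had 0 counts. Mmp9, which neutrophils also use, was at 2.21 TPM ± 0.184 (SD, n = 2), and Acp5 at 0.31 TPM (replicate 1) and 1.02 TPM (replicate 2). In such bulk RNA, fewer cells of a type and less RNA per cell cannot be told apart.

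The 8 genes of the V1 sector were all above 10 TPM in both libraries and close to one another. In the catalytic head, Atp6v1a, encoding the ATP-splitting subunit A, was at 12.99 TPM (replicate 1) and 21.23 TPM (replicate 2). Its partner Atp6v1b2, encoding subunit B, was at 17.25 and 22.87 TPM. Subunit B was the higher in both libraries. In the central stalk, Atp6v1d was at 10.36 and 17.28 TPM and Atp6v1f at 28.09 and 28.10 TPM, the lowest and highest means of the sector. In the outer stalks, Atp6v1e1 was at 21.07 and 27.01 TPM and Atp6v1g1, some of whose reads were shared with other features in replicate 2, at 14.22 and 23.28 TPM. Atp6v1c1 and Atp6v1h, encoding subunits C and H that regulate the joining of the sectors, were at 20.3 TPM ± 2.71 (SD, n = 2) and 15.8 TPM ± 3.8. The highest V1 gene exceeded the lowest 2.71-fold in replicate 1 and 1.63-fold in replicate 2. On log2(TPM + 1), the V1 median exceeded the V0 median by 0.69 in replicate 1 and 0.96 in replicate 2, a mean of 0.83 ± 0.19 (SD, n = 2). Without Atp6v0d2, a setting chosen after its values were seen, the difference was 0.29 ± 0.12, so most of it rests on that gene.

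Both accessory protein genes lay above the V-ATPase median of 20.1 TPM ± 3.97 (SD, n = 2). Atp6ap2, encoding the prorenin receptor needed for assembly of the pump, was at 37.82 TPM (replicate 1) and 51.96 TPM (replicate 2). Atp6ap1, encoding the accessory protein Ac45, was at 24.74 and 30.44 TPM. Both lie on the X chromosome, with Atp6ap1 at 74297097 to 74304721 and Atp6ap2 at 12587801 to 12617049 of mm10. The 7 genes of other assembly factors all reached 1 TPM in both libraries, where 40.8% of all nuclear protein-coding genes did. The median of these 7 was only 4.96 TPM ± 0.926 (SD, n = 2). Among them, Ccdc115, Tmem199 and Rogdi were highest, at 16.5 TPM ± 3.73, 5.94 TPM ± 0.0849 and 5.14 TPM ± 0.679. Wdr7 and Dmxl2 were lowest, at 2.24 TPM ± 0.523 and 1.91 TPM ± 0.191.

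For most subunits with several genes, 1 gene held nearly all of the TPM. Of the 8 other isoform genes, 6 had 0 counts in both libraries, where 40.2% of all nuclear protein-coding genes had none. These 6 were Atp6v0a4, Atp6v0e2, Atp6v1b1, Atp6v1c2, Atp6v1e2 and Atp6v1g3. Subunits B1 and a4 are known from kidney, and E2 from testis. Against the limit of 3 counts per library, Atp6v1b2 was at least 1450-fold higher than Atp6v1b1 in replicate 1 and at least 1460-fold higher in replicate 2. Atp6v1g2, a brain isoform of subunit G, had 77 (replicate 1) and 33 counts (replicate 2), or 0.77 and 0.47 TPM. Atp6v1g1 was 18.5-fold higher than Atp6v1g2 in replicate 1 and 49.5-fold in replicate 2. The 9 listed genes of these subunits and of subunit d had a median 4.23 ± 0.43 above that of the 8 other isoforms on log2(TPM + 1), where the median of the 8 was 0 TPM. The size of this difference depends on the scale, with 1.35 when genes below 0.1 TPM are left out, 2.81 on means and 7.48 with a pseudocount of 0.1.

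In subunit a the highest gene, Tcirg1, was not among the 37. It encodes subunit a3, the isoform of osteoclast and immune cell lysosomes, and was at 31.37 TPM (replicate 1) and 41.85 TPM (replicate 2). It held 83.0% of the summed subunit a TPM (replicate 1) and 82.9% (replicate 2). Atp6v0a1 held 8.63% ± 0.405 (SD, n = 2) and Atp6v0a2 8.44% ± 0.450. Much of the Tcirg1 value lay on short transcripts that are not annotated as protein-coding, a check made after its values were seen. Transcript 202, a nonsense-mediated decay transcript of 1233 nt, was at 13.93 TPM (replicate 1) and 12.26 TPM (replicate 2). Transcript 209, a retained-intron fragment of 463 nt, was at 4.82 and 15.35 TPM. The full-length coding transcript 201 of 2688 nt was at 7.30 and 9.20 TPM. Of the expected counts of Tcirg1, which are not divided by length, coding transcripts held 49.4% (replicate 1) and 53.2% (replicate 2). On coding transcripts alone, Tcirg1 held 56.2% of the subunit a TPM in replicate 1 and 58.5% in replicate 2, Atp6v0a1 21.6% and 15.2%, and Atp6v0a2 22.2% and 26.3%. Tcirg1 was the highest of the subunit a genes on both scales and in both libraries, by 2.38 ± 0.222-fold (SD, n = 2) over Atp6v0a2 on coding transcripts and 9.84 ± 0.530-fold on gene TPM. It lies on chromosome 19 at 3896050 to 3907133.

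**Figure D2:**
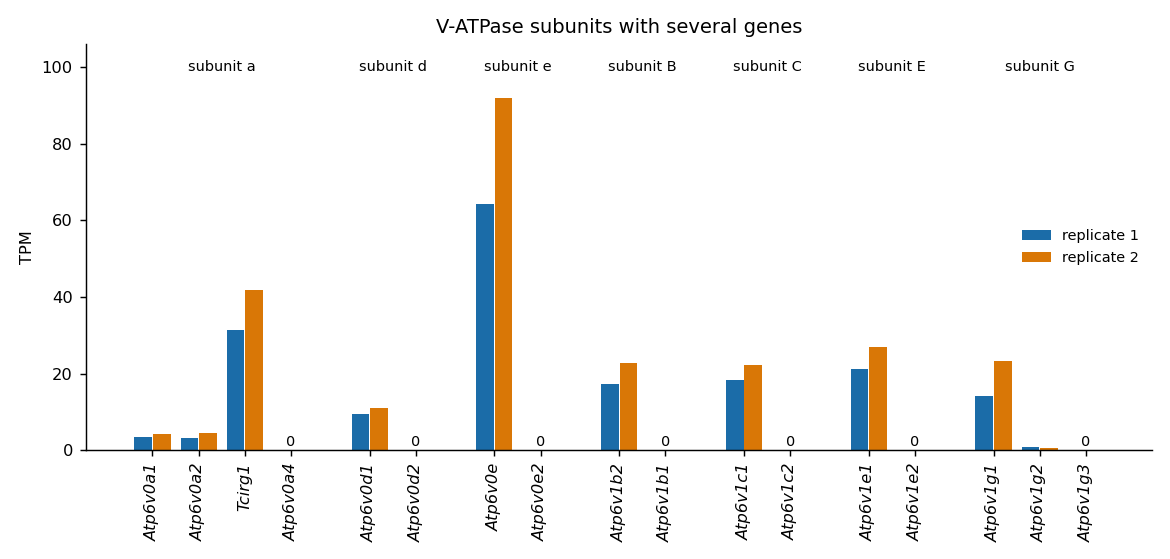
TPM in replicate 1 and replicate 2 (bars) of every gene of the 7 V-ATPase subunits that have several genes. A single gene stands out in each subunit, and 0 marks genes with no counts in either library. The Tcirg1 bars, at 31.37 and 41.85 TPM, include transcripts that are not annotated as protein-coding.

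Among the 12 hydrolases, levels were mostly lower than in the V1 sector and more spread. Hexa, encoding the alpha chain of the enzyme that degrades ganglioside GM2, was highest at 43.71 TPM (replicate 1) and 52.30 TPM (replicate 2). Gusb, the beta-glucuronidase gene, was at 20.21 and 21.07 TPM, and Asah1, the acid ceramidase gene, at 13.92 and 19.51 TPM. These 3 were the enzymes above 10 TPM in both libraries. Man2b1 and Glb1, which trim mannose and galactose from glycans, were at 9.78 TPM ± 1.57 (SD, n = 2) and 9.02 TPM ± 0.820. Arsb, a sulfatase of glycosaminoglycans, Lipa, the acid lipase that frees cholesterol, and Neu1, the sialidase, were at 7.87 TPM ± 0.332, 6.58 TPM ± 0.219 and 6.47 TPM ± 1.63. Gaa, the glycogen-degrading glucosidase, was at 6.33 TPM ± 0.163, and Gla, the alpha-galactosidase, at 4.78 TPM ± 1.29. Tpp1, a peptidase, was at 4.21 TPM ± 0.191. Arsa, the sulfatase of sulfatide, was at 5.97 TPM (replicate 1) and 2.03 TPM (replicate 2), the widest relative gap among the 36 detected genes. The enzymes' median was 7.26 TPM (replicate 1) and 7.63 TPM (replicate 2), close to that of genes at or above 1 TPM.

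The lipid-handling cofactors and the main membrane proteins were higher than most enzymes. Psap, the precursor of the saposins that present lipids to hydrolases, was at 47.74 TPM (replicate 1) and 59.68 TPM (replicate 2). Npc2, which binds cholesterol in the lumen, was at 16.56 and 19.53 TPM, while Npc1, the membrane protein that receives it, was at 1.68 and 2.52 TPM. The libraries did not overlap between these partners, and Npc2 exceeded Npc1 9.86-fold in replicate 1 and 7.75-fold in replicate 2. Lamp1 and Lamp2, encoding the abundant glycoproteins of the lysosomal membrane, were at 52.05 and 35.13 TPM in replicate 1 and at 68.91 and 48.41 TPM in replicate 2. The ratio of Lamp1 to Lamp2 was 1.45 ± 0.0411 (SD, n = 2). Scarb2, encoding LIMP-2, which carries glucocerebrosidase to the lysosome, was at 10.90 and 15.24 TPM in replicates 1 and 2. Mcoln1, the calcium channel gene of the lysosomal membrane, was at 7.65 TPM (replicate 1) and 4.77 TPM (replicate 2).

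Tfeb was the lowest of the 36 detected genes. It encodes the factor that moves to the nucleus when lysosomes are stressed, and was at 1.35 TPM (replicate 1) and 1.84 TPM (replicate 2), from 417 and 437 counts. Both values lie below their deposited credibility intervals, which run from 1.49 to 2.07 TPM in replicate 1 and from 2.09 to 3.06 TPM in replicate 2. Its related factors Mitf and Tfe3 were at 1.58 TPM ± 0.212 (SD, n = 2) and 1.40 TPM ± 0.403, within the spread of Tfeb. The fourth member of the family, Tfec, which is known from macrophages, was at 22.14 TPM (replicate 1) and 26.89 TPM (replicate 2). It exceeded Tfeb 16.4-fold in replicate 1 and 14.6-fold in replicate 2. Of the 17 genes on this family and its mTORC1 control, 15 reached 1 TPM in both libraries. Of all nuclear protein-coding genes, 40.8% did. Tfec, Lamtor2 and Lamtor4, the last 2 encoding parts of the Ragulator scaffold, were highest, with the Ragulator genes at 24.0 TPM ± 0.0990 and 21.6 TPM ± 3.52. Rragb, a Rag GTPase gene, was at 0.25 TPM (replicate 1) and 2.00 TPM (replicate 2), and Rragd was at 0 TPM with 2 counts in replicate 1 and 0 in replicate 2.

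The V-ATPase genes had a higher median than the other 20 genes. On log2(TPM + 1) the difference of medians was 0.98 in replicate 1 and 1.32 in replicate 2, or 1.15 ± 0.24 (SD, n = 2). In replicate 1 the V-ATPase median was 17.2 TPM and that of the others 8.27 TPM, and in replicate 2 they were 22.9 and 8.62 TPM. On means in place of medians the difference was 0.50. The groups themselves overlapped widely, since Lamp1, Psap and Hexa exceeded all V-ATPase genes but Atp6v0e in both libraries. Ordered by mean TPM, 31 of the 36 neighbouring pairs differed by no more than the larger of their SDs. These SDs include the generally lower deposited TPM of replicate 1, which moves neighbours together. The count therefore does not measure how firm the order is. The first 6, Atp6v0e, Lamp1, Psap, Hexa, Atp6ap2 and Lamp2, had the same order in both libraries. Across the 37 genes, Spearman's rho of TPM between the libraries was 0.980, a description across genes that share 2 libraries.

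Other genes of the compartment, outside the 37, were measured for context. Among all nuclear protein-coding genes, 40.8% reached 1 TPM in both libraries. Of 24 other lysosomal enzymes and cofactors, 20 did, and the median of the 24 was 4.41 TPM ± 0.216 (SD, n = 2). Ctsa, the protective protein of Glb1 and Neu1, Dnase2a and Ppt1 were highest, at 20.0 TPM ± 1.91, 18.5 TPM ± 6.26 and 17.2 TPM ± 2.34. Sgsh and Hyal1 were lowest, at 0.745 TPM ± 0.318 and 0.165 TPM ± 0.0495. Of 17 other membrane protein genes, 11 reached 1 TPM in both, led by Cd63, Laptm5 and Laptm4a at 36.1 TPM ± 1.79, 28.8 TPM ± 3.0 and 23.1 TPM ± 4.89. The channel gene Mcoln3 had 0 counts, and the metal transporter gene Slc11a1 had 8 (replicate 1) and 43 counts (replicate 2). Of 9 genes of mannose 6-phosphate sorting, which delivers hydrolases to lysosomes, 8 reached 1 TPM in both. M6pr, encoding the small receptor, was at 96.36 TPM (replicate 1) and 120.89 TPM (replicate 2), partly from reads shared with other features. Nagpa followed at 15.3 TPM ± 3.66, and Sort1 at 12.67 TPM (replicate 1) and 15.37 TPM (replicate 2). On coding transcripts alone, Nagpa was at 6.02 TPM (replicate 1) and 5.35 TPM (replicate 2), below Sort1 at 12.3 and 14.7 TPM. Igf2r, encoding the large receptor, was lowest at 0.29 TPM (replicate 1) and 0.19 TPM (replicate 2), and Gga1 was next at 2.91 TPM ± 0.615. Both Igf2r values lie below their deposited credibility intervals. These run from 0.294 to 0.754 TPM in replicate 1 and from 0.198 to 0.966 TPM in replicate 2.

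The libraries differed little in these genes once scaled by edgeR's trimmed mean of M values. On CPM, which scales counts to the library total, 35 of the 37 averaged 10 or more, and Tfeb and Atp6v0d2 did not. Their median difference in log2 CPM, replicate 1 minus replicate 2, was -0.06, and their median absolute difference was 0.18. The 8192 coding genes that passed the same cut-off had a median absolute difference of 0.181. Past 0.5 in either direction was 1 of the 35, Arsa, where 9.53% of all such genes were. That gene was higher in replicate 1, as were 5.19% of all such genes, and 0 of the 35 were higher in replicate 2 by that much, where 4.35% of all were. Arsa had 979 counts in replicate 1 and 470 in replicate 2, a difference of 0.94. Next highest were Atp6v1f and Arsb, both at 0.35, and lowest were Atp6v1d and Atp6v1g1, at -0.44 and -0.41. In all, 16 were higher in replicate 1 and 19 in replicate 2. The leading transcripts of the 35 genes had a GC content of 38.7% to 59.8%, with Arsa at the top. With a trend on GC content removed, Arsa was at 0.73 and the median stayed at -0.06. Deposited TPM was higher in replicate 2 for 33 of the 36 detected genes, the exceptions being Arsa, Arsb and Mcoln1, and on rescaled TPM 23 were. On rescaled TPM, 2 of the 35 differed by over 0.5 on the log2 scale, where 15.3% of all such genes did.

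**Figure D3:**
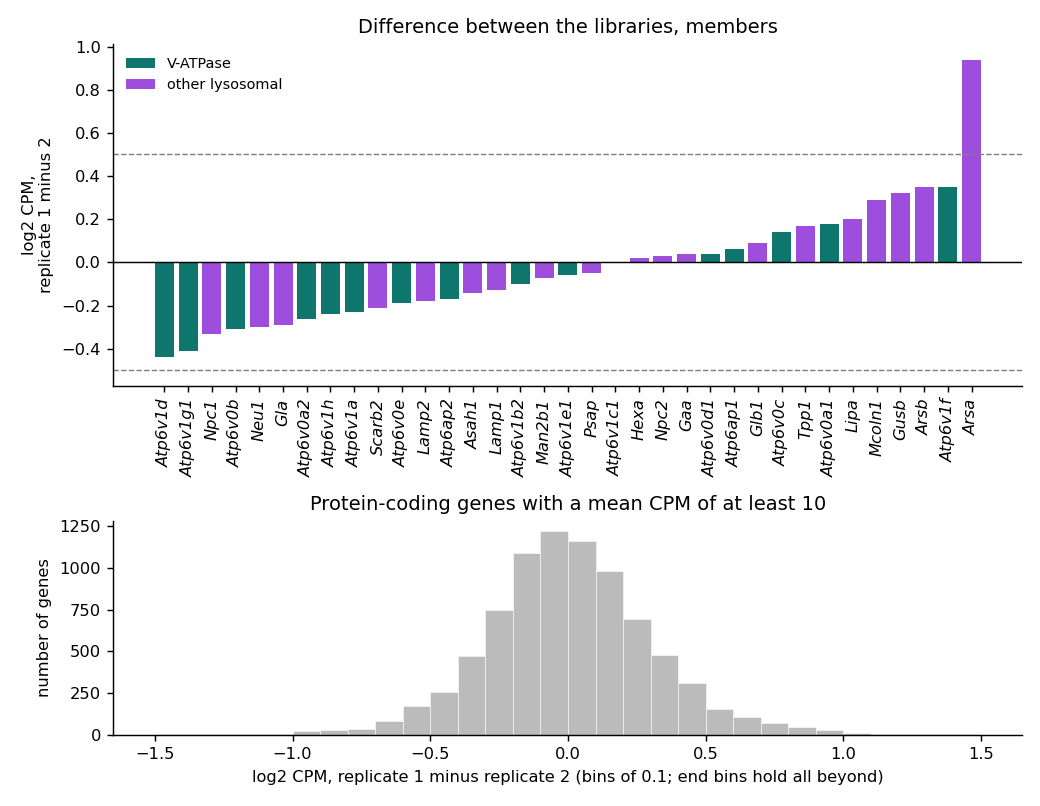
Difference in log2 CPM, replicate 1 minus replicate 2, for the 35 genes that averaged 10 CPM or more (bars, upper panel, dashed lines at 0.5 and -0.5), and the number of coding genes past that cut-off in bins of 0.1 (lower panel). Arsa, at 0.94, is the only bar beyond the dashed lines.

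Transcript shares, the percent of a gene's TPM that each transcript holds, showed where gene levels rest on short or noncoding models. Of the 37 genes, 24 have more than 1 transcript in the files, and 23 of those were detected. Their leading transcript held a median of 82.4% of its gene, against 69.2% over all 6556 coding genes of that kind. The leading transcript differed between the libraries for 5 of the 23 genes, where 22.0% of all such genes differed. For 5 it held under 60% on average, where 38.4% did.

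Mcoln1 was the 1 listed gene with under 50% of its TPM on coding transcripts in both libraries, where 6.81% of genes at or above 1 TPM were. Coding transcripts held 35.3% of its TPM (replicate 1) and 30.4% (replicate 2). Of its expected counts, which are not divided by length, they held 53.6% (replicate 1) and 58.8% (replicate 2). Its leading model, transcript 203, is a retained-intron fragment of 621 nt that was at 3.59 TPM (replicate 1) and 1.98 TPM (replicate 2), and the full coding transcript 201 was at 1.12 and 1.41 TPM. On deposited TPM, which is lower in replicate 1 for a typical coding gene, transcript 201 was thus higher in replicate 2, unlike the gene. Its expected counts were close, at 303.56 (replicate 1) and 291.42 (replicate 2). All coding transcripts of Mcoln1 together were higher in replicate 1, at 2.70 TPM against 1.45 TPM. That excess rests on transcript 204, a coding fragment of 363 nt. It was at 1.35 TPM in replicate 1, from 36.23 counts, and at 0 TPM in replicate 2. In TPM, the Arsa gap between libraries was mostly in transcript 204, a coding fragment of 704 nt. That fragment was at 4.47 TPM (replicate 1) and 0.60 TPM (replicate 2). The longer coding transcript 202 of Arsa was at 0.81 and 0.45 TPM, and the retained-intron transcript 201 at 0.70 and 0.98 TPM. In expected counts both coding transcripts were lower in replicate 2. Arsa-204 had 339.12 (replicate 1) and 33.16 (replicate 2), and Arsa-202 had 386.47 and 164.12. What sets the Arsa gap was not tested. In Atp6v0b the full coding transcript 201 was at 8.46 TPM (replicate 1) and 18.32 TPM (replicate 2), and a retained-intron model of 646 nt at 9.49 and 6.54 TPM. Atp6v1h was split between coding transcripts 201 and 204, at 8.04 and 4.99 TPM on average. The other 3 genes with a change of leading transcript were Atp6v0a1, Lipa and Tfeb. Atp6v0a1-203 held 40.43% (replicate 1) and 29.85% (replicate 2), and Atp6v0a1-210 held 8.50% and 30.74%. Lipa-201 held 46.01% (replicate 1) and 83.70% (replicate 2) of a gene whose 2 transcripts, of 2969 and 2965 nt, are nearly alike in length. Tfeb-202 held 47.06% (replicate 1) and 100.0% (replicate 2), from few counts. Psap-203 led in both libraries, with 75.33% and 84.84%.

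**Figure D4:**
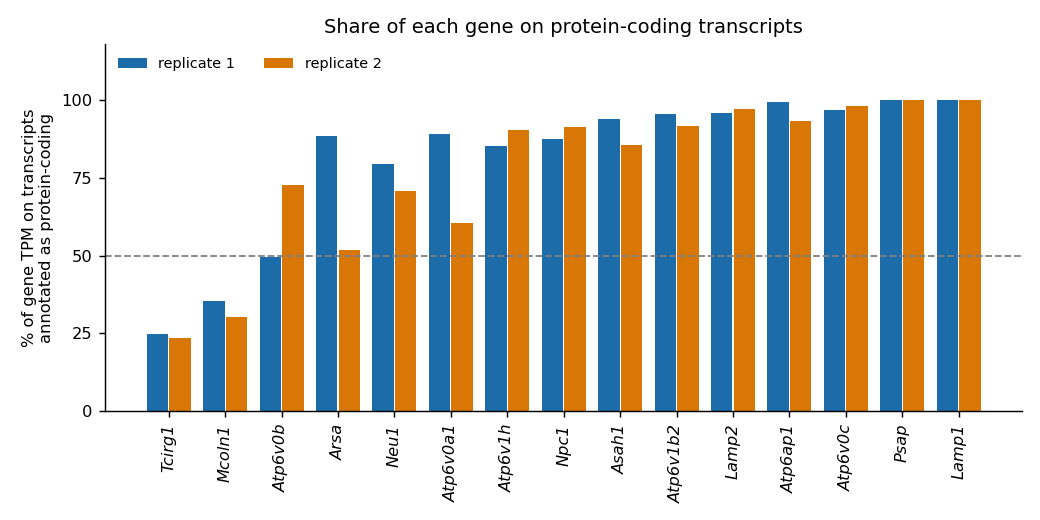
Percent of each gene's TPM on transcripts annotated as protein-coding, in replicate 1 and replicate 2 (bars from 0), for 14 of the listed genes and Tcirg1, with a dashed line at 50%. Tcirg1 and Mcoln1 lie below the line in both libraries, at 24.8% and 23.5% and at 35.3% and 30.4%.

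Lamp2 has 3 coding transcripts that share their first 1109 coding bases and end in different last exons, which encode the membrane span and the tail that sorts the protein. Their last 36 coding bases before the stop codon, from GENCODE M21 on the minus strand of chromosome X, are shown because the shares below refer to these ends.
Lamp2-202: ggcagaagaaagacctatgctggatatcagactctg
Lamp2-201: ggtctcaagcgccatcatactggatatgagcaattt
Lamp2-203: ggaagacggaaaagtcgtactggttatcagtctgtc
Their last coding segments lie, in the order shown, at chrX:38421715-38421851, chrX:38405435-38405571 and chrX:38402142-38402281 of mm10. Lamp2-202, the form known as LAMP-2B, held 76.43% of the gene in replicate 1 and 76.00% in replicate 2. Lamp2-201, known as LAMP-2A and the receptor of chaperone-mediated autophagy, held 17.67% and 20.24%. Lamp2-203, known as LAMP-2C, held 1.63% and 0.83%. The order was the same in both libraries, and each gap was larger than the difference between them. In TPM, Lamp2-202 averaged 31.8 and Lamp2-201 averaged 8.01.

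The promoters of several genes share a short palindrome. TFEB and related factors bind a site known as the CLEAR element, whose core is TCACGTGA, centred on the E-box CACGTG; both read the same on either strand. Windows from 250 bases before to 50 bases after the RefSeq start on GRCm38.p6 were found for 29 of the 37 genes. The core was present in 5 of 29, against 2.49% of 7058 coding genes at or above 1 TPM in both libraries and 1.12% of 27025 genes of any class. The E-box, which includes every core, was present in 10 of 29, against 12.6% and 8.09%. Many lysosomal genes are already known to carry TFEB sites, so these shares describe the list only. The windows of the core matches, and of the other genes with several E-boxes, are shown with each E-box in capitals, since they carry what these promoters share.
Lamp1: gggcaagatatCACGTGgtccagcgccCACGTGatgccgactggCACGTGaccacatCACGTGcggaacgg
Gla: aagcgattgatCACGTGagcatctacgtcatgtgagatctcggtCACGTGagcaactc
Atp6v0b: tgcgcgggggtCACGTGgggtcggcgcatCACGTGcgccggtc
Mcoln1: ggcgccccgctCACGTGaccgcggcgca
Atp6v1a: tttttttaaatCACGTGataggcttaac
Atp6v0d1: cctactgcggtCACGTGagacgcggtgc
Atp6v0e: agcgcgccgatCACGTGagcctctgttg
The Lamp1 window lies at chr8:13159089-13159159 on the plus strand and holds 4 E-boxes, which begin 61, 45, 28 and 15 bases before the start. Among 16317 coding genes with a window, 5 had 4 or more. The Gla window, at chrX:134601186-134601243 on the minus strand, holds 2 full cores. The Atp6v0b window lies at chr4:117887334-117887376, minus strand. The Mcoln1 window lies at chr8:3500463-3500490 on the plus strand, and another E-box of Mcoln1 begins 71 bases before the start. The remaining windows lie at chr16:44139374-44139401 for Atp6v1a, chr8:105566051-105566078 for Atp6v0d1 (both minus strand) and chr17:26676388-26676415 for Atp6v0e (plus strand). Gaa, Glb1 and Arsa had 1 E-box outside a core. The genes with an E-box ranged from 4.00 TPM for Arsa to 78.1 TPM for Atp6v0e in mean level. A match is a run of letters and was not tested as a binding site.

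**Figure D5:**
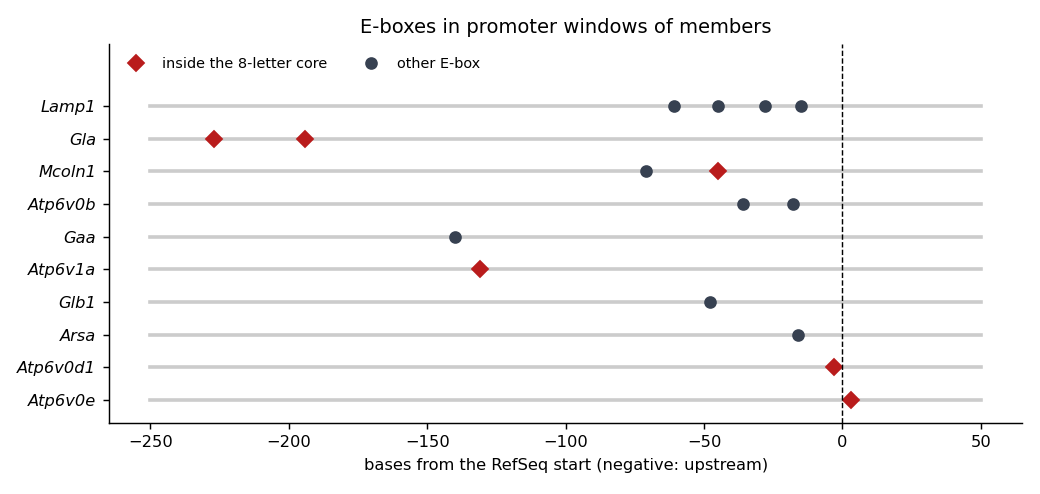
Positions of E-boxes in the promoter windows of the 10 listed genes that have one, in bases from the RefSeq start (dashed line), with diamonds for E-boxes inside the 8-letter core and circles for others. Lamp1 has 4 E-boxes within 61 bases of its start, and the E-boxes of Atp6v0d1 and Atp6v0e begin within 3 bases of theirs.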

How the data were processed

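Per the file headers and the notes deposited with each library, the authors' files give expected counts, TPM and FPKM per gene and per transcript on mm10 with GENCODE M4. The deposited transcript tables also hold, as a percent, the part of its gene that each transcript takes. Bounds of credibility intervals of TPM, treated as a score, are as deposited. Aligner, quantifier and use of strand: not given in the sources used here. Names, classes and coordinates came from GENCODE M21 through unversioned identifiers on mm10.

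For differences between libraries, expected counts were rounded and scaled in edgeR 4.0.16 (R 4.3.3), with factors of 0.985 and 1.015 from 12855 genes kept by filterByExpr. A prior count of 2 was added before log2, and the script was checked on simulated data. Size factors of DESeq2 1.42.0 were an alternative. For GC content, a lowess curve (span 0.3, statsmodels 0.14.6) was subtracted. Levels of lists are medians of log2(TPM + 1), a scale that understates differences of low genes. Limits for 0 counts cover counting error only. With 2 libraries of 1 group, no test was run.

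The genes and lists were chosen with earlier results of these data known. Named are all 37 genes, the other V-ATPase isoforms, the 3 highest and 2 lowest of each other list, markers above 1 TPM, and transcripts of genes whose leading transcript changed or held under 60%, with Lamp2, Psap, Atp6v0a1 and Atp6v1h. Mitf, Tfe3 and the Tcirg1 transcripts were added after their values were seen.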

Additional observations from a re-analysis of the deposited data

How the results depend on the processing

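Of 85 recomputed values, 62 kept to within the spread between libraries or within 1.5 times the count, 23 moved further and 0 changed sign. Leaving out 1 of 2 libraries cannot move a mean of the 2 by more than their SD, so those outcomes were fixed in advance. Counts and shares cannot change sign either. The totals therefore do not measure how robust the results are. On rescaled TPM, 33 genes reached 10 (34.8% of all coding genes did), the median of all 37 was 6.23 on log2(TPM + 1), the isoform difference 6.43, and 2 genes passed 0.5 between libraries (15.3% of all such genes did). On FPKM the median was 5.43 and the isoform difference 5.62. The isoform difference was 7.48 with a pseudocount of 0.1, 1.35 without genes below 0.1 TPM and 2.81 on means, since most other isoforms are at 0. On means, the V-ATPase exceeded the other genes by 0.50. V1 exceeded V0 by 0.29 without genes below 0.1 TPM, and by 0.29 without Atp6v0d2. On coding transcripts, an alternative chosen after seeing the data, Atp6v0a1, Atp6v0a2 and Tcirg1 held 18.4%, 24.2% and 57.4% of subunit a. On posterior means Atp6v0a1, Tcirg1 and Atp6v0a4 held 9.17%, 82.3% and 0.224%, and the leading transcript 81.7%. With 1 library left out, the Tcirg1 share was 82.9% to 83.0%, which counts as moved only through rounding. The leading share was then 84.8% to 85.1%. The E-box in place of the core was in 10 promoters. Other causes were not tested. No paired analysis was possible because there is only 1 group. Gene TPM of Tcirg1, Mcoln1, Arsa and Atp6v0b is limited by short transcript models.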
